A study of Mus musculus with 8 samples.

Results

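Interferon-stimulated genes are the genes that cells switch on when they sense interferon, and 39 of them were followed here in endothelial cells of 2 mouse tissues. They were chosen by symbol, with chemokine and MHC genes left out, and the symbols were matched between the sequencing runs by gene identifier. Of the 39, 37 were found among the 30406 genes that both runs list. Mx1 and Mx2 are not analysed here. In the fit over all endothelial cells 36 of the 37 passed the filter on low counts, the exception being Oas3, and in the fit over endothelial classes 34 passed. The rule itself uses symbols only, although it was drawn up with earlier results of these data known.

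The cells came from male mice of the genotype ROSA26-eYFP+/+ Cdh5-CreERT2+. In these mice a tamoxifen-induced Cre recombinase under the endothelial Cdh5 promoter switches on a yellow fluorescent protein, so that endothelial cells can be sorted. All groups carried both alleles and all had eaten tamoxifen food for 2 weeks from 6 weeks of age. From 8 weeks of age the mice ate either chow with 5.8% fat or a high fat diet with 60% fat for 12 to 13 weeks. Fluorescent cells were sorted from the mesentery or from epididymal adipose tissue, in buffers that held the transcription inhibitor Actinomycin D, and captured as single cells by their 3′ RNA ends. Each of the 4 groups (mesentery or adipose, chow or high fat) had 2 libraries, 1 in run A and 1 in run B, and the tissue of 6 mice was pooled in each library. Values from a library therefore describe a pool. Between groups, p-values measure the spread between 2 pools a group, which may be partly technical. That spread takes in the difference between run A and run B, except where the run is taken as a block. Between endothelial classes, they measure how class differences within a library varied over the 8 libraries of the 4 groups.

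Interferons of type I act through the receptor of Ifnar1 and Ifnar2 and factors that include STAT2 and IRF9, which bind the interferon-stimulated response element (ISRE) in promoters. Interferon gamma, the type II interferon, acts through the receptor of Ifngr1 and Ifngr2 and is tied to another promoter element, the gamma-activated site (GAS). The genes that follow include factors that carry the response further (Irf1, Irf7, Irf9, Stat2), proteins that block viral RNA or budding (the IFIT family, Rsad2, Bst2), the ubiquitin-like Isg15 and its protease Usp18, the OAS family that senses double-stranded RNA, and the guanylate-binding (GBP) and immunity-related (IRG) GTPases that attack the vacuoles of intracellular pathogens. Type I interferon is known for the first groups and interferon gamma for the GTPases, but the responses overlap widely.

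Promoters of 7 members are shown because the members below fall into an antiviral list of 12 (Ifit1, Ifit2, Ifit3, Ifit3b, Isg15, Rsad2, Irf7, Usp18, Oasl2, Cmpk2, Ifi44, Rtp4) and a list of 11 GTPases (Gbp2 to Gbp7, Igtp, Irgm1, Irgm2, Ifi47, Iigp1) that differed between endothelial classes. Each stretch is the 120 bases before the transcription start in RefSeq, build GRCm38.p6, 5′ to 3′ on the gene's strand, with capitals at any ISRE (GAAA, any 2 bases and GAAA, or TTTC, any 2 bases and TTTC on the other strand) and any GAS (TTC, any 3 bases and GAA, which reads the same on both strands). The antiviral genes Isg15 (chr4:156200819-156200938, minus strand), Ifit1 (chr19:34640769-34640888, plus strand) and Rsad2 (chr12:26456453-26456572, minus strand) hold ISRE letters only. Irf1 (chr11:53769894-53770013, plus strand) holds GAS letters only. The GTPase gene Gbp2 (chr3:142620543-142620662, plus strand) holds an ISRE, and Gbp7 (chr3:142530216-142530335, plus strand) and Igtp (chr11:58199436-58199555, plus strand) hold both.
Isg15: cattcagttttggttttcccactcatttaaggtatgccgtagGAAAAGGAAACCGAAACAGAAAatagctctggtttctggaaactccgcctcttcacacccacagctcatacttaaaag
Ifit1: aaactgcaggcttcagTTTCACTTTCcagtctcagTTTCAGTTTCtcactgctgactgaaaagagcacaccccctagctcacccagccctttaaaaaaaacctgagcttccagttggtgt
Rsad2: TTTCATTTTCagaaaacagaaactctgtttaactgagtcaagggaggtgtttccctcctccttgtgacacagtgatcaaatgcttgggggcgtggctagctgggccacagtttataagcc
Irf1: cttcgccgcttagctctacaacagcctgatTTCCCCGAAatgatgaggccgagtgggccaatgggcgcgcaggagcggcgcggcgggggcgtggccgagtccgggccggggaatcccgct
Gbp2: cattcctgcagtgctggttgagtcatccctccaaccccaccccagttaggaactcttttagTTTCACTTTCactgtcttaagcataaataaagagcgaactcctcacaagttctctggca
Gbp7: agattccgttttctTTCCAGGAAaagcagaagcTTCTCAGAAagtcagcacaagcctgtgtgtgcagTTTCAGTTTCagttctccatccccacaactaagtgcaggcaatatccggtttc
Igtp: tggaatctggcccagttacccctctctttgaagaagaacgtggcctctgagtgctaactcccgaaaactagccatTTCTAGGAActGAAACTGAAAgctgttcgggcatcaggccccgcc

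RefSeq promoter windows were found for 29 members, some with more than 1 start. In the 250 bases before a start, 17 of the 29 (58.6%) held ISRE letters, beside 936 of 27025 genes (3.46%) with a window of the same length. GAS letters stood in 8 of the 29 (27.6%), beside 2197 of the 27025 (8.13%). Among the GTPases with a window 7 of 8 held an ISRE and 4 of 8 a GAS, and among the antiviral genes 5 of 10 held an ISRE and 1 of 10 a GAS. A match is only a run of letters. Neither a match nor its lack says whether a factor bound there.

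Libraries of run A held 3461360 to 6714473 unique molecular identifiers (UMIs) and those of run B 18829960 to 36779289, so run B was the more precise. After filters 23207 of 27944 barcodes were used, in 32 clusters that were made without the members, the other interferon genes or the chemokines they induce. Endothelial cells numbered 653 to 1215 a library in run A and 2013 to 3146 in run B. The sum of 11 endothelial markers was 7464 to 9906 CPM (counts per 1000000 UMIs) in the endothelial cells of every library. Classes were named arterial-like, capillary-like, venous-like and lymphatic-like from their markers. The runs differed in makeup: capillary-like cells made up 2.06% to 17.8% of endothelial cells in run A and 22.2% to 56.4% in run B, and lymphatic-like cells 26.8% to 59.0% and 5.12% to 10.7%. Barcodes with too much mitochondrial RNA were 22.8% to 30.8% in run A and 5.42% to 8.96% in run B. Any pair of libraries shared at most 10 barcodes.

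Most members were detected in every library. CPM here come from UMIs summed over the cells of a library and were scaled between libraries, and as 1 tag is counted per captured molecule they are not divided by transcript length. Bst2, the tetherin that holds budding virions on the cell, was at 332.6 to 773.4 CPM over all endothelial cells. Iigp1, an immunity-related GTPase, spanned 79.9 to 550.6 CPM, Irf1 75.3 to 331.0, Gbp7 106.7 to 269.1 and Isg15 84.3 to 180.3. At the low end of their groups Usp18 was at 9.57 to 21.9, Ifit3b at 2.08 to 22.2 and Zbp1, a sensor of Z-form nucleic acid, at 3.37 to 23.5. Oas3 had 2, 1, 5 and 5 UMIs in the 4 libraries of run B and was not seen in run A. Ifit3 and Ifit3b are near-identical copies and some of the GBP genes have close paralogues, so how the authors' counting split their reads is uncertain.

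The antiviral genes differed between the vessel classes. Rsad2, which encodes viperin, an enzyme that makes a chain-terminating nucleotide, was highest in capillary-like cells at 118.9, 308.4 and 538.4 CPM (lowest, median and highest of 8 libraries). It was at 24.3, 100.9 and 270.5 in arterial-like cells, 2.13, 16.7 and 73.3 in venous-like cells and 0, 9.85 and 18.9 in lymphatic-like cells. The capillary-like and arterial-like ranges overlapped between libraries, but within each of the 8 libraries capillary-like cells were higher, and every capillary-like value lay above every venous-like value. Isg15 was at 138.1, 164.3 and 237.5 CPM in arterial-like cells, 81.5, 138.9 and 244.3 in capillary-like cells, 27.8, 61.9 and 143.8 in venous-like cells and 46.9, 96.0 and 217.3 in lymphatic-like cells. For Isg15 the venous-like level was below the arterial-like and the capillary-like level in every library. The GTPase Iigp1 had another order, with 54.4, 219.2 and 485.1 CPM in arterial-like cells, 161.8, 297.9 and 664.7 in capillary-like cells, 91.8, 455.5 and 827.0 in venous-like cells and 59.4, 157.0 and 511.1 in lymphatic-like cells.

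**Figure D1:**
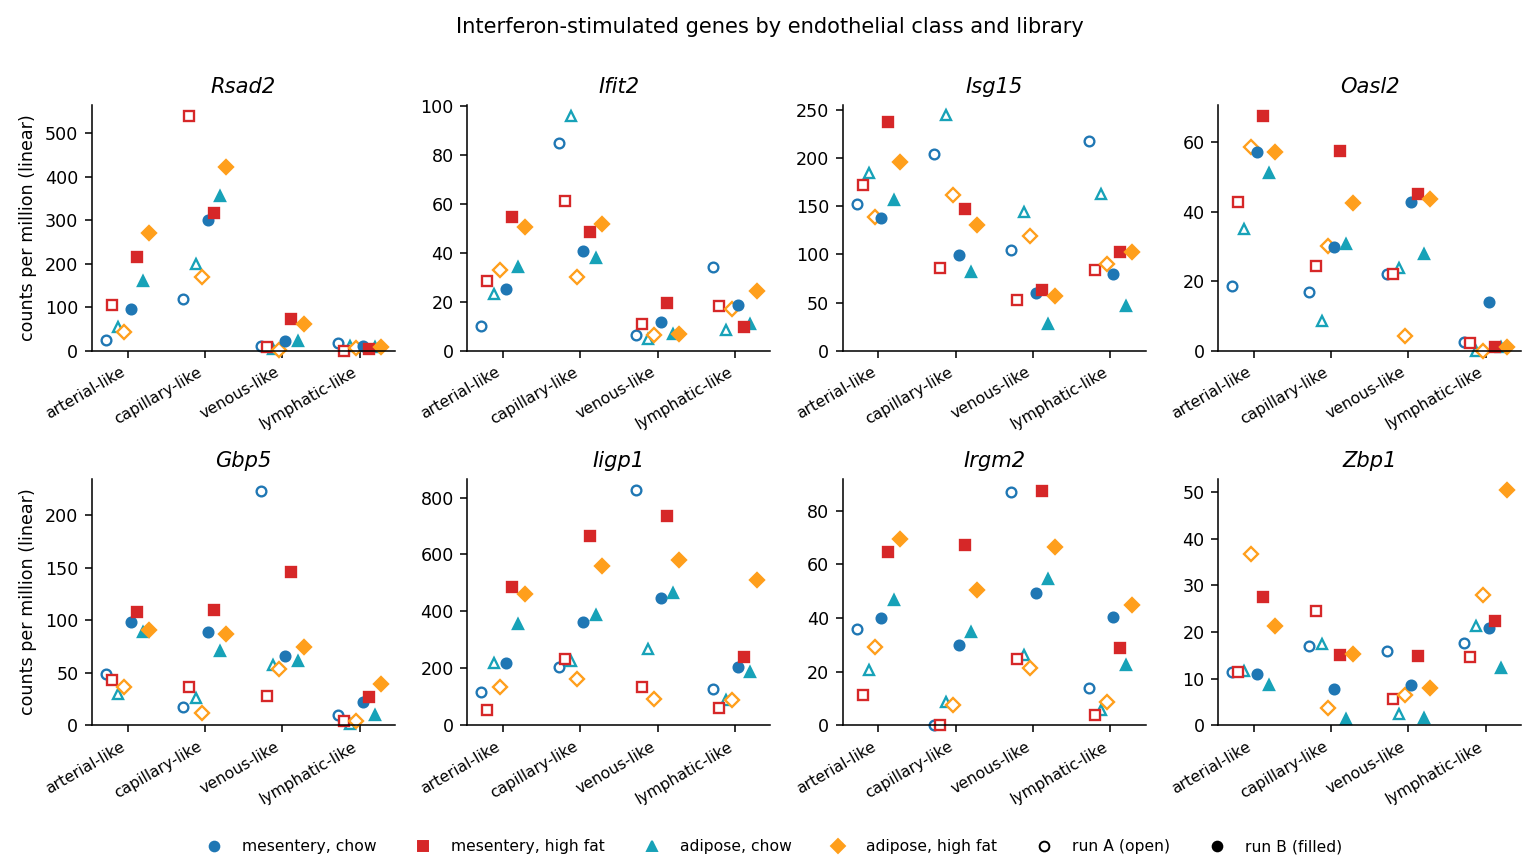
CPM (linear axis) of 8 members in 4 endothelial classes, 1 point per library, with shape and colour for tissue and diet, open points for run A and filled points for run B. Rsad2 was higher in capillary-like than in arterial-like cells in all 8 libraries, and Iigp1 spread from 91.8 to 827.0 in venous-like cells.

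Venous-like cells had less of most antiviral genes than arterial-like cells, while only 1 of the GTPases passed the test. The comparison used edgeR's quasi-likelihood test with the library as a block, and genes with a p below 0.05 after Benjamini-Hochberg adjustment over all 8875 genes were called. Of 34 members 17 fell, beside 14.4% of all genes, and 1 rose, beside 15.5%, and the median log2 difference was -0.41 over the members and 0.00 over all genes. Of the antiviral list 11 of 12 fell, among them all 4 IFIT genes, and of the 11 GTPases 1 rose and none fell. Both lists were drawn up with results known and are no independent evidence. By role, 4 of 4 IFIT genes, both genes of the ISG15 system, both OAS genes tested, 4 of 7 antiviral effectors and 2 of 4 transcription factors fell, and the effectors Bst2, Trim30a and Ifi44 were not called. limma-voom called 8 of the 34 members, all lower. Arterial-like cells were not uniform, as their cluster 17 (top genes Mgp, Cytl1 and Pi16) had an antiviral sum of 147.6 to 377.7 CPM, unscaled, in the 6 libraries with enough of its cells, beside 203.3 to 421.8 in venous-like cells and 407.9 to 1055 in all arterial-like cells.

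The largest falls in venous-like cells were in Oas2, which makes the second messenger that activates RNase L, by 3.04 ± 0.32 (log2, SE; adjusted p = 1.61e-08, edgeR), and in Rsad2, by 2.11 ± 0.33 (adjusted p = 1.03e-05, edgeR). Ifit2, an RNA-binding protein of the IFIT family, fell by 1.81 ± 0.28, Cmpk2, a mitochondrial nucleotide kinase beside Rsad2 in the genome, by 1.70 ± 0.18, and Irf7, the factor that amplifies type I interferon, by 1.61 ± 0.20. Each of these 5 was lower in 8 of 8 libraries. Iigp1 rose by 0.82 ± 0.24 (adjusted p = 0.00863, edgeR) and was higher in 7 of 8 libraries. Venous-like clusters were not uniform in Iigp1. In adipose tissue (chow and high fat diet of run A, then of run B) arterial-like cells had 219.5, 135.5, 355.5 and 460.8 CPM. In unscaled CPM, venous-like cluster 16 had 165.4, 40.0, 145.3 and 482.5 there, and venous-like cluster 7 had 368.2, 155.5, 749.9 and 553.8. The call on Iigp1 was lost with limma-voom and in the run A libraries alone, where the difference was 1.10.

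Capillary-like cells had more of most antiviral genes than venous-like cells. Of 34 members 16 rose, beside 14.4% of all genes, and 2 fell, beside 17.6%, with a median log2 difference of 0.38 over the members. Of the antiviral list 10 of 12 rose. Rsad2 rose by 3.49 ± 0.35 (log2, SE; adjusted p = 5.34e-09, edgeR), Ifit2 by 2.16 ± 0.28, Cmpk2 by 2.07 ± 0.18, Oas2 by 2.03 ± 0.34 and Usp18, which removes ISG15 from proteins and damps the receptor, by 1.30 ± 0.29. Ifi35, a leucine zipper protein, rose by 1.17 ± 0.14 and was higher in 8 of 8 libraries. The 2 that fell were the GTPases Irgm2, by 0.78 ± 0.20 (adjusted p = 0.00273, edgeR; 8 of 8 libraries), and Igtp, by 0.54 ± 0.21 (adjusted p = 0.0465, edgeR; 6 of 8 libraries). Igtp lost its call without any 1 library other than that of adipose tissue on high fat diet in run A.

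Capillary-like and arterial-like cells differed in few members. Of 34, 3 rose in capillary-like cells, beside 10.4% of all genes, and 3 fell, beside 13.4%, and the median log2 difference was -0.02 over the members. Rsad2 rose by 1.38 ± 0.31 (log2, SE; adjusted p = 0.00120, edgeR), Ifi35 by 0.81 ± 0.14 and Parp14, an ADP-ribosyl transferase, by 0.51 ± 0.17. Oas2 fell by 1.01 ± 0.25, Zbp1 by 0.97 ± 0.29 and Ifih1, the double-stranded RNA sensor MDA5, by 0.57 ± 0.16. Zbp1 was lower in 5 of 8 libraries only. The calls on Oas2, Zbp1 and Ifih1 were lost without the chow adipose library of run B, which left 3 members called, and that on Parp14 without any 1 of the run A libraries, while without the chow mesentery library of run A 11 members were called.

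Lymphatic-like cells had less of most members than the mean of the 3 blood vessel classes. Of 34 members 24 fell, beside 23.1% of all genes, and 1 rose, beside 23.2%, with a median log2 difference of -0.87 over the members and 0.00 over all genes. The falls took in 9 of the 11 GTPases and 7 of the 12 antiviral genes, but neither Isg15 nor Usp18. Oasl2, an OAS-like protein, fell by 3.36 ± 0.34 (log2, SE; adjusted p = 1.57e-09, edgeR), from medians of 54.2, 30.0 and 25.9 CPM in arterial-like, capillary-like and venous-like cells to 1.09 in lymphatic-like cells. Rsad2 fell by 3.36 ± 0.39, Gbp5, a guanylate-binding protein that promotes inflammasome assembly, by 2.24 ± 0.28, Rtp4, a chaperone with antiviral action, by 2.20 ± 0.22, and Irf1, a factor induced by interferon gamma, by 1.47 ± 0.14. All of these were below the mean of the 3 blood vessel classes in 8 of 8 libraries. Against venous-like cells alone, Oasl2, Gbp5, Rtp4 and Irf1 were lower in 8 of 8 libraries, but Rsad2 in 5 of 8. Ifit2, Isg15, Cmpk2 and Irf9 were higher in lymphatic-like than in venous-like cells in 7 of 8. Oas2 had 1 UMI in lymphatic-like cells of all libraries and 642 in the blood vessel classes, a ratio of 88.2 with an exact 95% interval of 15.8 to 3488 for counting error. Zbp1 rose by 1.17 ± 0.24 (adjusted p = 0.000163, edgeR).

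**Figure D2:**
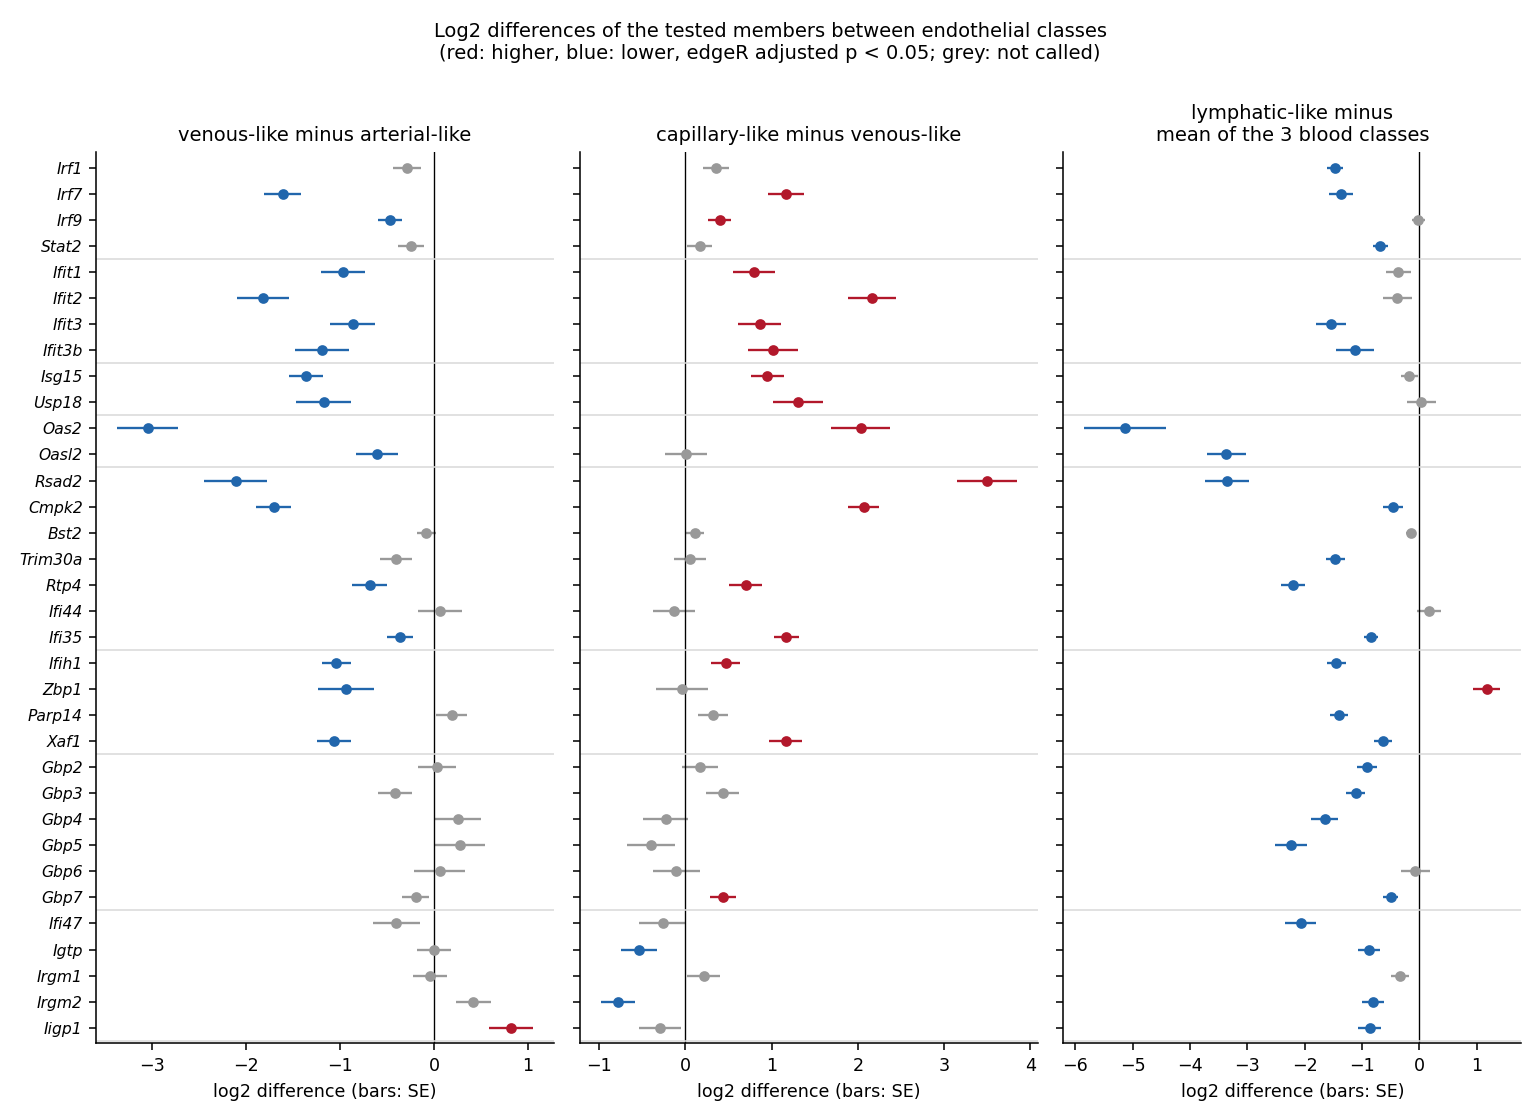
Log2 differences (x axis; bars are SE) of the 34 tested members between endothelial classes, with red for higher, blue for lower and grey for not called by edgeR. The panels are venous-like minus arterial-like, capillary-like minus venous-like and lymphatic-like minus the mean of the blood vessel classes. Oas2 and Rsad2 lie far to the left in the venous-like and lymphatic-like panels, and only Zbp1 is red in the lymphatic-like panel.

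With the run A libraries alone, edgeR called 5 of 29 members tested between venous-like and arterial-like cells (20.8% of all genes called), and with the run B libraries alone 20 of 36 (26.3%). For capillary-like against venous-like cells 11 of 29 (13.4%) and 17 of 36 (32.5%) were called, for capillary-like against arterial-like cells 2 of 29 (10.5%) and 10 of 36 (22.6%), and for lymphatic-like against blood vessel cells 20 of 29 (32.9%) and 27 of 36 (40%). Members called in the joint fit kept their direction in each run in which they were tested, which was 14 of 14 in run A and 18 of 18 in run B for venous-like against arterial-like cells, 15 of 15 and 18 of 18 for capillary-like against venous-like cells, 4 of 4 and 6 of 6 for capillary-like against arterial-like cells and 21 of 21 and 25 of 25 for the lymphatic-like comparison. The runs are parts of the libraries that gave the joint calls, so this agreement was largely set by the choice of members. It is no independent evidence. Rsad2 was the 1 member called in both runs between capillary-like and arterial-like cells.

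Of the other genes of the pathway 45 were tested. In capillary-like against arterial-like cells 9 rose (10.4% of all genes) and 2 fell (13.4%), and in venous-like against arterial-like cells 11 rose (15.5%) and 8 fell (14.4%). In capillary-like against venous-like cells 12 rose (14.4%) and 7 fell (17.6%), and in lymphatic-like cells 7 rose (23.2%) and 21 fell (23.1%). Irf8, a factor best known from myeloid cells, rose in venous-like cells by 3.97 ± 0.25 (log2, SE, against arterial-like cells) and in lymphatic-like cells by 1.69 ± 0.17. Ifngr1, the ligand-binding chain of the interferon gamma receptor, fell by 1.34 ± 0.14 in lymphatic-like cells, with a median of 117.0 CPM there and 331.2, 336.3 and 267.5 CPM in arterial-like, capillary-like and venous-like cells. Ifi203, a DNA-binding protein of the IFI200 family, and Sp100, of nuclear bodies, fell in lymphatic-like cells by 4.69 ± 0.25 and 3.62 ± 0.17. Tmem173, which encodes STING, rose in venous-like cells by 1.58 ± 0.16. These genes were picked with their values already known.

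Receptor RNA was counted in every library and interferon RNA almost nowhere. Over all endothelial cells Ifnar1 was at 44.2 to 74.1 CPM, Ifnar2 at 73.1 to 209.5, Ifngr1 at 144.7 to 424.6 and Ifngr2 at 16.2 to 41.6. Of the 9 interferon genes looked for, 8 (Ifnb1, Ifna1, Ifna2, Ifna4, Ifnk, Ifng, Ifnl2 and Ifnl3) had no UMI among the 72178899 endothelial UMIs of the 8 libraries, which allows a level of up to 0.0416 CPM (3 counts), and Ifne reached 0.0805 CPM in 1 library. Interferon RNA in the other cells of the sort was not looked at here, and cells of the tissue outside the sort were not measured. Socs3, an inhibitor of cytokine receptor signalling, was at 229.4 to 461.1 CPM in run A and 10.3 to 20.9 in run B, with no overlap between the runs.

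Without the run as a block, no member was called between the 4 groups in all endothelial cells. This fit counts the difference between the runs as spread, so a lack of calls does not show a lack of difference. For the high fat diet against chow in the mesentery edgeR called 0 of 36 members and 0% of the 13151 genes tested (367 genes at an unadjusted p below 0.05, of which 0 were members), and DESeq2 called 14 genes and no member. The median log2 difference over the members was -0.08, with 17 of 36 above 0. For the diet in adipose tissue edgeR called 0% of genes (96 at an unadjusted p below 0.05; 2 with DESeq2, no member), with a median of 0.17 and 30 of 36 members above 0. For mesentery against adipose tissue edgeR called 0% on chow (426 at an unadjusted p below 0.05; 62 with DESeq2, no member), with a median of 0.38 and 30 of 36 above 0. On the high fat diet it called 0% (88 at an unadjusted p below 0.05; 7 with DESeq2, no member), with a median of 0.11 and 28 of 36 above 0. The difference between the diet's effects in the 2 tissues called 0% (114 at an unadjusted p below 0.05; 0 with DESeq2), with a median of -0.28 over the members. The comparisons share groups, so their medians are not independent of each other. The share of all genes above 0 is not given beside these counts, nor beside those by run and in arterial-like cells below. The counts therefore do not set the members apart from other genes. In the summed cells of a class, fewer cells that express a gene and less RNA per cell cannot be told apart.

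The members with the smallest p were a mixed set. Oas1a differed by 1.61 ± 0.97 (log2, SE) and Ifit2 by 0.62 ± 0.53 for the diet in the mesentery, and Oasl1 by 0.82 ± 0.45, Zbp1 by 1.18 ± 0.66 and Irf7 by 0.54 ± 0.43 for the diet in adipose tissue. On chow, mesentery against adipose tissue, Ifi44 differed by 1.24 ± 0.55, Zbp1 by 1.46 ± 0.66 and Irf7 by 0.74 ± 0.43. On the high fat diet Ifi35 differed by 0.23 ± 0.28, Ifi44 by 0.38 ± 0.53 and Irf7 by 0.27 ± 0.43. None passed the test, and every adjusted p was 0.9999 or 1.0 (edgeR).

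Over all endothelial cells Rsad2 was the 1 member called when the run was taken as a block. It was at 18.1 CPM in mesentery on chow, 45.2 in adipose tissue on chow, 45.0 in mesentery on high fat diet and 47.9 in adipose tissue on high fat diet in run A. In run B the same groups were at 119.0, 246.9, 217.5 and 265.8 CPM. In each run the chow mesentery was the lowest of the 4, and the runs did not overlap. Without the block the chow tissue difference was -1.08 ± 1.31 (log2, SE, mesentery minus adipose) and the adjusted p was 1.0 (edgeR). With the block 0 members were called for the diet in mesentery (0.388% of genes), the diet in adipose tissue (0.076%), the tissues on high fat diet (0%) and the difference of the diet's effects (0%). For the tissues on chow the Rsad2 difference was -1.16 ± 0.18 (adjusted p = 0.0384, edgeR), 1 member among 88 genes called (0.669%). The call was lost without the chow or the high fat adipose library of either run, and without the chow mesentery library of run B 8 members were called. The diet difference of Rsad2 in the mesentery was 1.06 ± 0.17 with the block, with an adjusted p of 0.0657 (edgeR), and it was called by DESeq2 with the block.

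Capillary-like cells, the class with the most Rsad2, moved with this result under the main filters and clustering. They were 2.06%, 7.53%, 4.90% and 17.8% of the endothelial cells of run A in the order just given, and 22.2%, 56.4%, 40.0% and 40.0% of those of run B. In run B this depended on the processing. With a 20% mitochondrial limit they were 277 of 3339 endothelial cells in chow mesentery and 156 of 3555 in chow adipose tissue there. With doublets kept they were 389 of 3205 and 316 of 3813. In run A the chow mesentery stayed lower, with 8 of 1458 and 58 of 1464, and 13 of 1241 and 77 of 1207. Their part in the result was not tested. Within capillary-like cells of run A, where those of chow mesentery numbered 25, Rsad2 was at 118.9, 200.7, 538.4 and 169.3 CPM, and in run B at 300.4, 356.2, 316.5 and 422.3. Within arterial-like cells it was also lowest in the chow mesentery of each run.

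In arterial-like cells alone Rsad2 and Ifit2 were higher on the high fat diet than on chow in the mesentery of both runs. Rsad2 there was at 23.8 CPM on chow and 103.3 on high fat diet in run A, and at 92.8 and 208.3 in run B. Ifit2 was at 9.80 and 27.9 in run A and 24.4 and 52.7 in run B. Without the block edgeR called 0 of 36 members and 0% of 10377 genes (216 at an unadjusted p below 0.05, and 1 called with DESeq2). Of the 36 members 31 had a positive difference, with a median of 0.47. With the run as a block Rsad2 rose by 1.45 ± 0.29 (log2, SE; adjusted p = 0.00867, edgeR) and Ifit2 by 1.17 ± 0.29 (adjusted p = 0.0323, edgeR), 2 of 36 members beside 2.98% of all genes. The count was 5 without the chow mesentery library of run A and 1 without any 1 library of run B. Oas1a and Ifit3 differed by 1.59 ± 0.51 and 0.77 ± 0.28 with the block and were not called.

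The arterial-like cells of the mesentery lay in the same clusters on the 2 diets, but in different proportions. Cluster 17, the one with the least Rsad2, held 113 of 179 arterial-like cells on chow and 27 of 119 on high fat diet in run A, and 223 of 669 and 23 of 599 in run B. Within clusters, in CPM not scaled between libraries, Rsad2 did not have 1 direction. In cluster 5 it was at 113.9 on chow and 217.8 on high fat diet in run A, and at 240.8 and 321.4 in run B. In cluster 6 it was at 15.8 and 107.4 in run A but at 92.1 and 68.9 in run B. In cluster 17 it was at 12.1 on chow in run A with no UMI on high fat diet (up to 29.5 allowed by 3 counts), and at 24.1 and 10.3 in run B. The part of the clusters in the 2 calls was not tested.

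Within these arterial-like cells the 2 lists are given by run. Of the antiviral genes 11 of 12 were higher on the high fat diet in run A and 12 of 12 in run B, with medians of 0.63 and 0.77 on the log2 scale of CPM + 1. Within clusters the antiviral sum was at 1410 CPM on chow and 1204 on high fat diet in cluster 5, 435.6 and 564 in cluster 6 and 226.9 and 147.6 in cluster 17 in run A, and at 875.7 and 1258, 805 and 848.3, and 283 and 253.3 in run B. It was thus higher on the high fat diet in both runs in cluster 6 alone, and lower in both in cluster 17. Of the GTPases 9 of 11 were lower in run A and 11 of 11 higher in run B, with medians of -0.67 and 0.68. In adipose tissue the median difference of the members was 0.21, with 27 of 36 above 0, and no member was called without the block (0% of genes, 57 at an unadjusted p below 0.05; 0 with DESeq2) or with it (0.241% of genes). Zbp1 differed there by 1.504 ± 0.568, Ifi35 by -0.63 ± 0.36 and Irf1 by -0.54 ± 0.51, and none of them was called.

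The GTPases split the runs over all endothelial cells too. Their summed level was 1654 CPM in chow mesentery, 641 in chow adipose tissue, 416 in mesentery on high fat diet and 494 in adipose tissue on high fat diet in run A. In run B the groups were at 1171, 1116, 1805 and 1547 CPM. The chow mesentery was thus the highest library of run A, and the high fat libraries the highest of run B. All 11 GTPases were lower on the high fat diet in the mesentery of run A (median -2.19) and all 11 were higher in run B (median 0.63). The antiviral list summed to 398, 418, 306 and 332 CPM in run A and 573, 611, 827 and 790 CPM in run B.

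**Figure D3:**
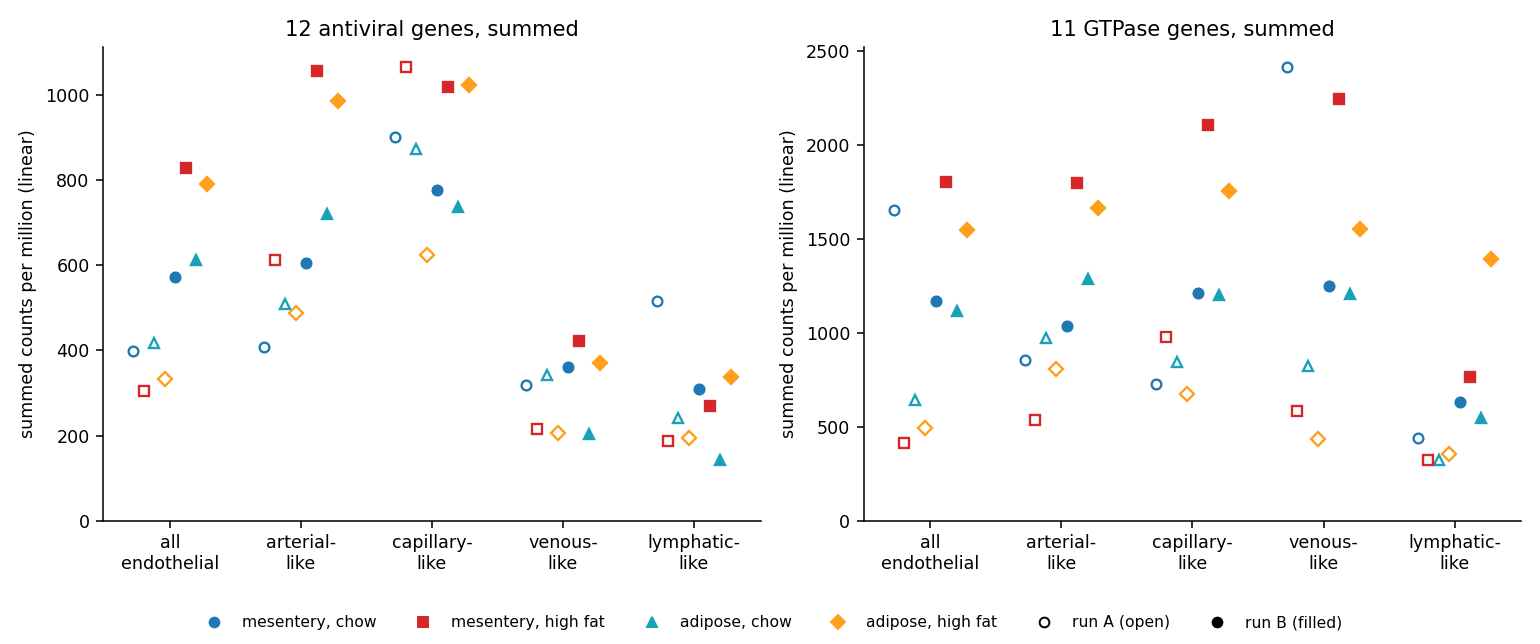
Summed CPM (linear axis) of the 12 antiviral genes and the 11 GTPases over all endothelial cells and in each class, 1 point per library, with open points for run A and filled points for run B. The chow mesentery library of run A stands at 2415 for the GTPases in venous-like cells, where the other run A libraries lie between 438 and 822.

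The GTPases Gbp5 and Iigp1 and the factor Irf1 show the split. Gbp5 was at 131.7 CPM in chow mesentery, 22.6 in chow adipose tissue, 14.6 in mesentery on high fat diet and 21.3 in adipose tissue on high fat diet in run A, and at 73.6, 66.0, 100.3 and 76.0 in run B. Iigp1 was at 540.4, 179.7, 79.9 and 114.0 in run A and 397.5, 357.3, 550.6 and 493.6 in run B. Irf1 was at 331.0, 185.0, 75.3 and 82.8 in run A and 111.5, 135.2, 149.4 and 135.4 in run B. In all 3 the chow mesentery of run A was the highest library of its run.

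Over all 37 members, 31 were lower on the high fat diet in the mesentery of run A and 35 were higher in run B. In adipose tissue 24 were lower in run A and 35 higher in run B. The median difference over the 36 tested members in the mesentery, -0.08 with all libraries, was 0.34 without the high fat mesentery library of run A (32 of 36 above 0) and -0.98 without that of run B (1 of 36). In adipose tissue it was -0.61 without the high fat library of run B (3 of 36 above 0).

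**Figure D4:**
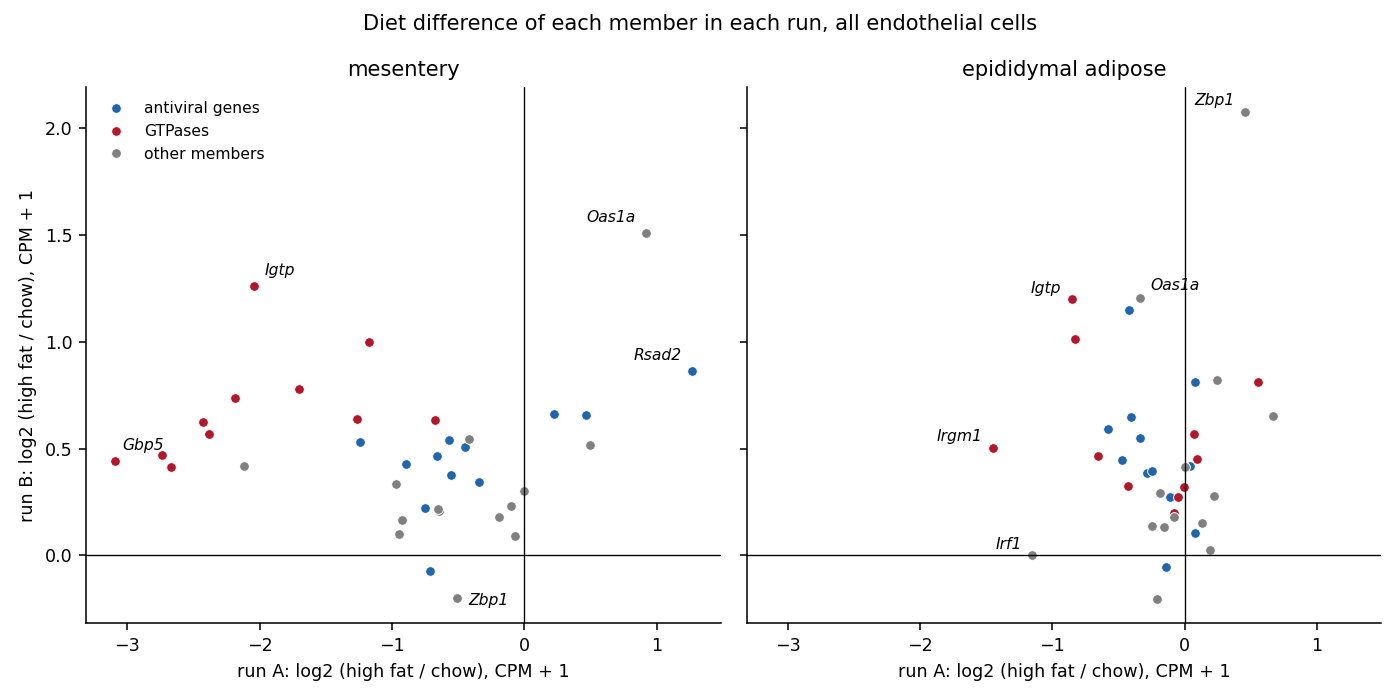
Log2 ratio of high fat diet to chow (CPM + 1) in run A (x axis) against run B (y axis) for each of the 37 members over all endothelial cells, in mesentery and in adipose tissue. The 11 GTPases lie in the upper left corner for the mesentery, lower in run A and higher in run B.

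Makeup and other cell markers moved with these libraries. Venous-like cells were 49.9% of endothelial cells in the chow mesentery of run A and 12.9% to 27.9% in the other 7 libraries. Within venous-like cells the GTPase sum was 2415, 822, 585 and 438 CPM in run A and 1249, 1207, 2243 and 1551 in run B, so the chow mesentery of run A and the high fat libraries of run B were again the highest. Within venous-like cluster 8 it was 2272 CPM (490 cells) in chow mesentery and 579 (40 cells) on high fat diet in run A, and 1051 (540 cells) and 2085 (78 cells) in run B. The 6 B cell markers summed to 1418 CPM in the high fat mesentery of run A and 1.16 to 84.7 elsewhere, the 10 macrophage markers to 804 in the high fat adipose tissue of run B and 25.7 to 200.4 elsewhere, and the 7 adipocyte markers to 2263 and 658 in the chow adipose tissue and mesentery of run B and 1.67 to 131.4 elsewhere. The 4 erythroid markers summed to 0.862, 102.6, 12.9 and 109.3 in run A (chow mesentery, chow adipose, high fat mesentery, high fat adipose) and 277.3, 952.7, 191.2 and 806.6 in run B, so they were lower in mesentery than in adipose tissue of each run and diet, and the chow mesentery was below the chow adipose tissue in both runs as it was for Rsad2. The part of these cells in the results was not tested.

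Few single cells had several antiviral genes at once. Each cell was thinned to 1000 UMIs so that depth was equal, and a cell was counted when it had 3 or more of the 12 antiviral genes. Shallower cells were left out, which were 52 of 1215, 225 of 1049, 37 of 653 and 206 of 860 in run A and 80 of 2802, 47 of 3146, 30 of 2013 and 36 of 2347 in run B, so the shares are of the thinned cells. This gave 2.06%, 2.06%, 1.14% and 1.68% of thinned endothelial cells in run A (chow mesentery, chow adipose, high fat mesentery, high fat adipose) and 4.74%, 2.81%, 5.80% and 4.72% in run B. The exact Clopper-Pearson 95% intervals, which cover counting error only, were 0.458% to 2.33% for the lowest of these shares and 4.81% to 6.92% for the highest. Unthinned the shares were 4.10% to 10.8% in run A and 22.8% to 38.7% in run B. With 2 libraries against 2 an exact permutation test, two-sided, cannot give a p below 0.33, so the groups were not tested.

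A cell was counted for the GTPases when it had 3 or more of the 11. These were 12.7% (95% interval 10.9% to 14.8%) of cells in the chow mesentery of run A, then 4.73%, 1.95% and 3.06% in the other run A libraries. In run B they were 7.83%, 8.39%, 17.9% (16.2% to 19.7%) and 14.3% (12.9% to 15.8%). Unthinned they were 8.60% to 45.5% in run A and 48.4% to 66.7% in run B.

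**Figure D5:**
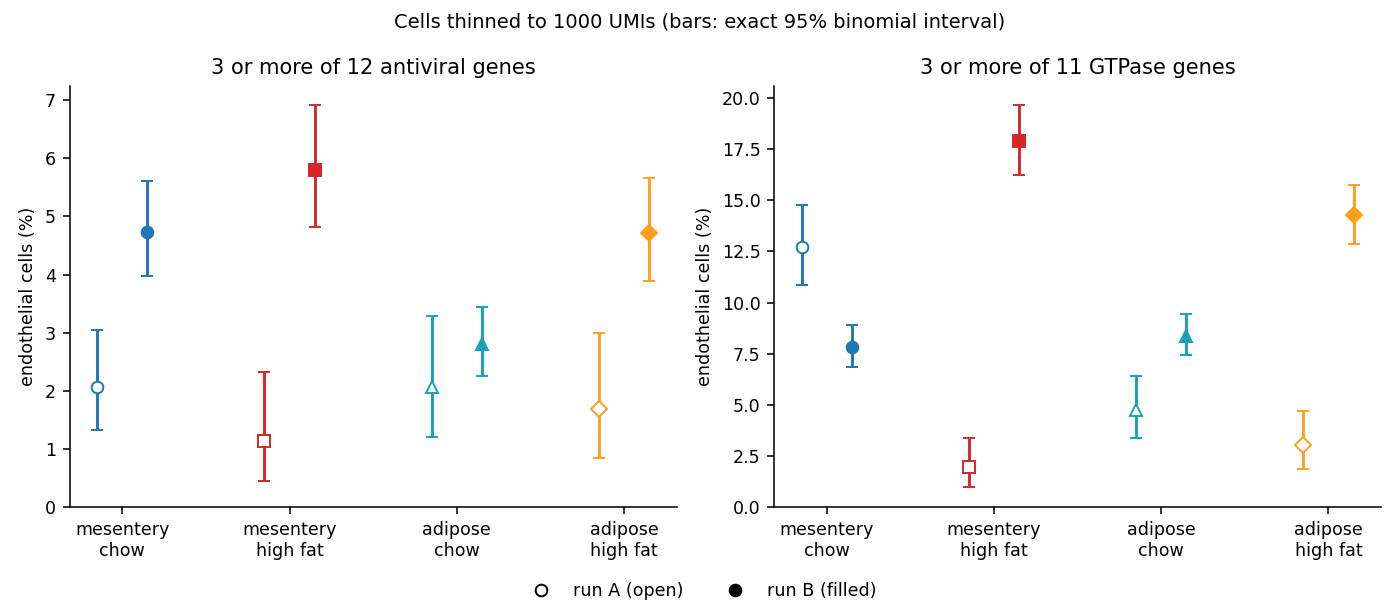
Share of thinned endothelial cells (%, axis from 0) with 3 or more of 12 antiviral genes and with 3 or more of 11 GTPases after thinning to 1000 UMIs, by group, with open points for run A, filled points for run B and bars for the exact 95% binomial interval. The high fat libraries of run B reach 17.9% and 14.3% for the GTPases and the chow mesentery of run A 12.7%.

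The share of cells with several GTPases is given for antiviral cells and for the others, with no test. Of cells with 3 or more antiviral genes 29.2% in chow mesentery, 35.3% in chow adipose tissue, 0 of 7 cells in high fat mesentery and 18.2% in high fat adipose tissue had 3 or more GTPases in run A, beside 12.4%, 4.09%, 1.97% and 2.80% of the other cells. In run B it was 33.3%, 21.8%, 43.5% and 42.2% beside 6.56%, 8.00%, 16.3% and 12.9%. The share was higher in 7 of the 8 libraries. Median UMIs before thinning were 1756 to 5921 in the antiviral cells and 1767 to 5570 in the others.

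RNA of some members was concentrated in those cells. Over all libraries 499 of 13372 thinned endothelial cells (3.73%) had 3 or more antiviral genes. For the antiviral genes, each gene was left out of the choice of its own cells. Then 425 cells held 30.2% of Ifit1 UMIs and 469 cells held 28.6% of Usp18 UMIs. For Isg15 350 cells held 20.2%, and for Rsad2 367 cells held 14.2%. Genes outside the antiviral list were counted in the 499 cells. These held 5.32% of Irf1 UMIs, 7.51% of Bst2 and 6.93% to 12.6% of those of the GTPase genes. The antiviral cells are a range cut from a count of genes and not a cell type.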

How the data were processed

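The deposited values were UMI counts per gene and barcode, made by the authors with Cell Ranger 3.0.2 (run A) or 5.0.0 (run B), per the file headers, on build mm10, per the submitters' processing notes, which also name Seurat 4.3.0. Run letters pair the libraries: deviations from group means of same-lettered libraries correlated at 0.58 to 0.75 over 13151 genes in endothelial cells and 0.49 to 0.62 over 10377 in arterial-like cells.

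Barcodes needed 500 UMIs, 300 genes and at most 10% mitochondrial UMIs. Of 23970 that passed, 763 (3.18%) were removed as doublets at the expected rate, because the automatic cut of the caller marked 45 (0.188%). Cells were clustered with scanpy 1.11.5 on 2000 variable genes. From the classes and from all endothelial cells, 4 clusters were left out that had 3 or more markers of another cell type among their 10 leading genes. Cluster 28, of 176 cells led by cell cycle genes, also carried macrophage markers but stayed in all endothelial cells. Of its cells 63 lay in the high fat adipose library of run B. Raw counts were summed per library and class (at least 20 cells) and tested with edgeR 4.0.16 (TMM scaling, filterByExpr, quasi-likelihood), with DESeq2 1.42.0 and limma 3.58.1 as alternatives. On simulated data 83% of 4-fold and 17% of 2-fold changes were recovered for the diet in mesentery over 12711 genes, and 98% and 55% for capillary-like against arterial-like cells over 8561 genes. The simulated counts had 1 fixed spread for all genes and no difference between the runs. The real libraries differed between runs, so these rates do not give the power of the fits reported here.

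The members and lists were chosen with earlier results of these data known. Named genes are called members (all up to 10, otherwise the 5 largest rises and falls that kept their direction in both runs or in 6 of 8 libraries), with or without the run as a block, and the 3 with the smallest p among those with 1 direction in both runs. A result that was withheld from the text is not reported here.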

Additional observations from a re-analysis of the deposited data

Results flagged for a closer look

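Zbp1 and Cmpk2 over all endothelial cells differed on the high fat diet one way in the mesentery of both runs and the other way in adipose tissue of both runs. For Zbp1 the diet difference in the mesentery minus that in adipose tissue was -1.54 ± 0.90 (log2, SE; adjusted p = 0.9998, edgeR), and it was at 23.5, 14.5, 16.2 and 20.3 CPM in run A (chow mesentery, chow adipose, high fat mesentery, high fat adipose) and 22.2, 3.37, 19.2 and 17.4 in run B. For Cmpk2 it was 0.655 ± 1.23 (adjusted p = 0.9998, edgeR), with 9.48, 12.2, 11.2 and 10.9 CPM in run A and 23.8, 38.7, 38.3 and 37.2 in run B. Cmpk2 had 21 UMIs in adipose tissue of run A on either diet, so its direction there rests on library depth alone. Neither difference passed the test.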

How the results depend on the processing

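No member was called between groups without the run as a block under DESeq2, upper-quartile scaling, limma-voom, no filter on low counts, a 20% mitochondrial limit, doublets kept, a finer clustering or mixed clusters kept. With the replicate block, 1 member was called for the tissues on chow and 2 for the diet in arterial-like cells of the mesentery, and with the block in DESeq2 1 for each of these and 1 for the diet in mesentery. Leaving out 1 library under the block gave 0 to 3 members for the diet in mesentery, 0 to 8 for the tissues on chow and 1 to 5 for arterial-like cells of the mesentery. The block changed no other call. Over all genes, calls for the diet in mesentery, the diet in adipose tissue and the tissues on chow were 0, 0 and 0 in the main fit, 51, 10 and 88 with the block, 269, 21 and 385 with the block in DESeq2, 47, 0 and 69 with the block in limma-voom and 20, 9 and 39 with the block and mixed clusters kept. For arterial-like cells of the mesentery and adipose tissue they were 0 and 0, 309 and 25 with the block, 135 and 5 in DESeq2 with the block, 173 and 0 in limma-voom with the block, and 84 and 19 with no filter, which gave 3 for the tissues on chow. DESeq2 with the block also called 13 genes for the tissues on high fat diet and 31 for the difference of the diet's effects.

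Between capillary-like and arterial-like cells 6 members were called, and over all members tested under each setting limma-voom called 1, no filter gave 10, the libraries of run A 2 and those of run B 10, and leaving out 1 library gave 3 to 11. For venous-like against arterial-like cells (18 called) limma-voom gave 8 and run A 5, and for capillary-like against venous-like cells (18 called) limma-voom gave 8 and run A 11. With 1 library left out the differences turned sign for Ifit2 (-0.0252 to 1.15) and Rsad2 (-0.584 to 2.83) by diet in mesentery, Irf7 by diet in adipose tissue (-0.044 to 0.938), Rsad2 by tissue on chow (-2.98 to 0.564), Ifi44 (-0.28 to 1.23) and Irf7 (-0.286 to 0.846) by tissue on high fat diet and Ifi44 in the difference of the diet's effects (-1.52 to 0.0115). The cause was not tested. Mixed clusters, the block in other tools and the single runs were added after seeing the data.

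The shares of antiviral cells differed by 0.0664 percentage points between diets in the mesentery (-2.27 to 2.40 with 1 library left out) and 0.764 in adipose tissue (-0.753 to 2.28), and those of GTPase cells by -0.35 (-8.33 to 7.63) and 2.11 (-3.50 to 7.72). In run A the capillary-like class holds 25 to 153 cells a library, which limits its values.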

Other observations

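UMIs of these genes were also counted in other cells of the sort. The CPM here are not scaled between libraries, and free RNA was not subtracted, so a low level in these cells may be background. Fibroblast-like cells had Isg15 at 24.6, 82.9 and 449.2 CPM (lowest, median and highest of 8 libraries) and Bst2 at 119.3, 206.5 and 293.1, with endothelial cells at 87.9, 122.6 and 177.4 for Isg15 and 328.0, 528.3 and 780.3 for Bst2. Macrophage-like cells, in the 4 libraries that held enough of them, had Rsad2 at 7.70, 27.3 and 47.2 and Iigp1 at 11.6, 46.4 and 152.7. T-cell-like cells of 7 libraries had Irf7 at 20.8, 52.9 and 71.4, beside 22.2, 32.1 and 58.4 in endothelial cells. Oas3 was at 0, 3.23 and 4.11 CPM in macrophage-like cells, from 30 UMIs in all, and at 0, 0.0228 and 0.406 CPM in endothelial cells, from 13 UMIs.

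Gbp2b, a guanylate-binding GTPase outside the 39 members that was picked after its values were seen, was uneven between libraries. Over all endothelial cells of run A it had 436 UMIs in chow mesentery, 28 in chow adipose tissue, 53 in mesentery on high fat diet and 62 in adipose tissue on high fat diet (93.9, 16.2, 22.1 and 32.3 CPM). In run B it had 1 and 0 UMIs in the chow mesentery and adipose tissue and 269 and 274 in the high fat libraries (21.7 and 21.3 CPM). In run B the high fat mesentery was 316.6-fold higher than the chow mesentery, with an exact 95% interval of 56.3 to 12550 for counting error. The high fat adipose tissue was 162.2-fold higher than 3 counts in the chow library would be. The exact 95% interval from its own counts begins at 131 and has no upper end. In these values the diet and the cohort of mice behind a library cannot be told apart. Gbp2 of the same family was at 100.6, 111.1, 157.1 and 134.4 CPM in the libraries of run B (chow mesentery, chow adipose, high fat mesentery, high fat adipose).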
